A study of Mus musculus with 22 samples.

Results

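The connexin and pannexin genes Gja1, Gjb6, Gjb2, Gjb1, Gjc3, Gja4, Gjc1, Panx1 and Panx2 were followed in ribosome-bound mRNA of mouse optic nerve astrocytes. These 9 genes were taken by gene symbol from the 29367 genes of the count table, and all 9 had a row in it. The mice were homozygous for a RiboTag allele, B6J.129(Cg)-Rpl22tm1.1Psam/SjJ, whose ribosomal protein Rpl22 gains an HA tag after Cre recombination. They also carried a GFAP-Cre transgene, of line 73.12 on a B6.Cg background, in which the mouse GFAP promoter drives a constitutive Cre, so any cell with present or past activity of that promoter can be tagged. Adult mice received microbeads in 1 eye to raise the intraocular pressure, and the labels give the genotype as WT. The optic nerve head (ONH), where axons leave the eye, and an equal length of the optic nerve proper (ONP) behind it were taken at 7 or 30 days. Each library pooled tissue of 4 mice, 2 male and 2 female. There were 7 libraries per region at 30 days and 4 per region at 7 days. The paper's methods state that both regions were taken from the same mice. The main tests did not pair libraries and so treated the regions as independent. At 30 days libraries of the same replicate number were paired only in a repeat fit with the replicate as a block. The 7 day libraries were assigned to a region and day only. All 4 groups were injected, uninjured samples were not analysed here, and every difference reported here is therefore between days or regions of injected eyes.

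Connexins are membrane proteins that assemble into channels, which dock between adjacent cells as gap junctions and let ions and small metabolites pass. Astrocytes are coupled mainly by Cx43, the product of Gja1, and Cx30, the product of Gjb6. Oligodendrocytes use Cx32 (Gjb1) and Cx29 (Gjc3) among others, and vessels express Cx37 (Gja4) in endothelium and Cx45 (Gjc1) in mural cells. Gjb2 encodes Cx26, which is known from the leptomeninges and epithelia as well as from some astrocytes. Pannexins are a separate family whose best known member, Panx1, forms channels that release ATP from single cells.

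Libraries held 16292489 to 33307092 counts. Levels are given in CPM, read counts scaled to a common library total after TMM normalization over all 22 libraries. A count of 3, used as the detection floor, was worth 0.0897 to 0.191 CPM depending on the library. Levels of different genes were compared only per kilobase of merged exons (CPM per kb). Merged exons join all annotated transcripts of a gene, 8 over 10257 bases for Gja1 and 3 over 1707 bases for Gjb1. Where the mRNA present is shorter than the merged exons, this scale understates the gene. Rankings, ratios and shares between genes therefore depend on these lengths. The 10 astrocyte markers were detected in every library, with a summed level of 16142 to 37265 CPM. The 10 oligodendrocyte markers were also detected in every library and summed to 13440 to 41098 CPM in the ONH and to 25561 to 106875 CPM in the ONP. In bulk libraries of this kind, fewer cells of a type and less RNA per cell cannot be told apart. The ONH libraries also carried markers of photoreceptors (104 to 5721 CPM) and pigment epithelium (266 to 1281 CPM), with 2.57 to 128 CPM and 76.6 to 139.8 CPM in the ONP. In the ONP the pigment epithelium sum was mainly Rlbp1, with means of 85.3 CPM at 30 days and 121 CPM at 7 days. Library 6 of the 7 day ONH had the highest summed levels of photoreceptor (5721 CPM), fibroblast and meningeal (19894 CPM) and endothelial (435 CPM) markers of all 22 libraries, and values with and without it are given where it bears on a result. Each sum is weighted to its most abundant genes. Ptgds alone reached 18149 CPM in library 6, and Gfap had group means of 12759 to 18167 CPM within the astrocyte sum.

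Per kilobase, Gja1 was the most abundant of the 9 genes, with a median of 92.1 CPM per kb over the 22 libraries. The oligodendrocyte connexins followed, with medians of 46.0 CPM per kb for Gjb1 and 32.4 CPM per kb for Gjc3, and Gjb6 had 11.8 CPM per kb. Gjb2 (2.74 CPM per kb), Panx1 (1.33), Gjc1 (0.907) and Gja4 (0.636) were far lower, and Panx2 had a median of 0.0731 CPM per kb. The genes also differed in their constancy. From the lowest to the highest library Gja1 varied 3.08-fold, Panx1 4.29-fold, Gjc1 4.57-fold, Gjb1 7.91-fold and Gjc3 7.93-fold. Gjb6 varied 10.7-fold and Gjb2 33.8-fold, and the lowest library of Gja4 held only 3 counts, so no such ratio is given for it.

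**Figure D1:**
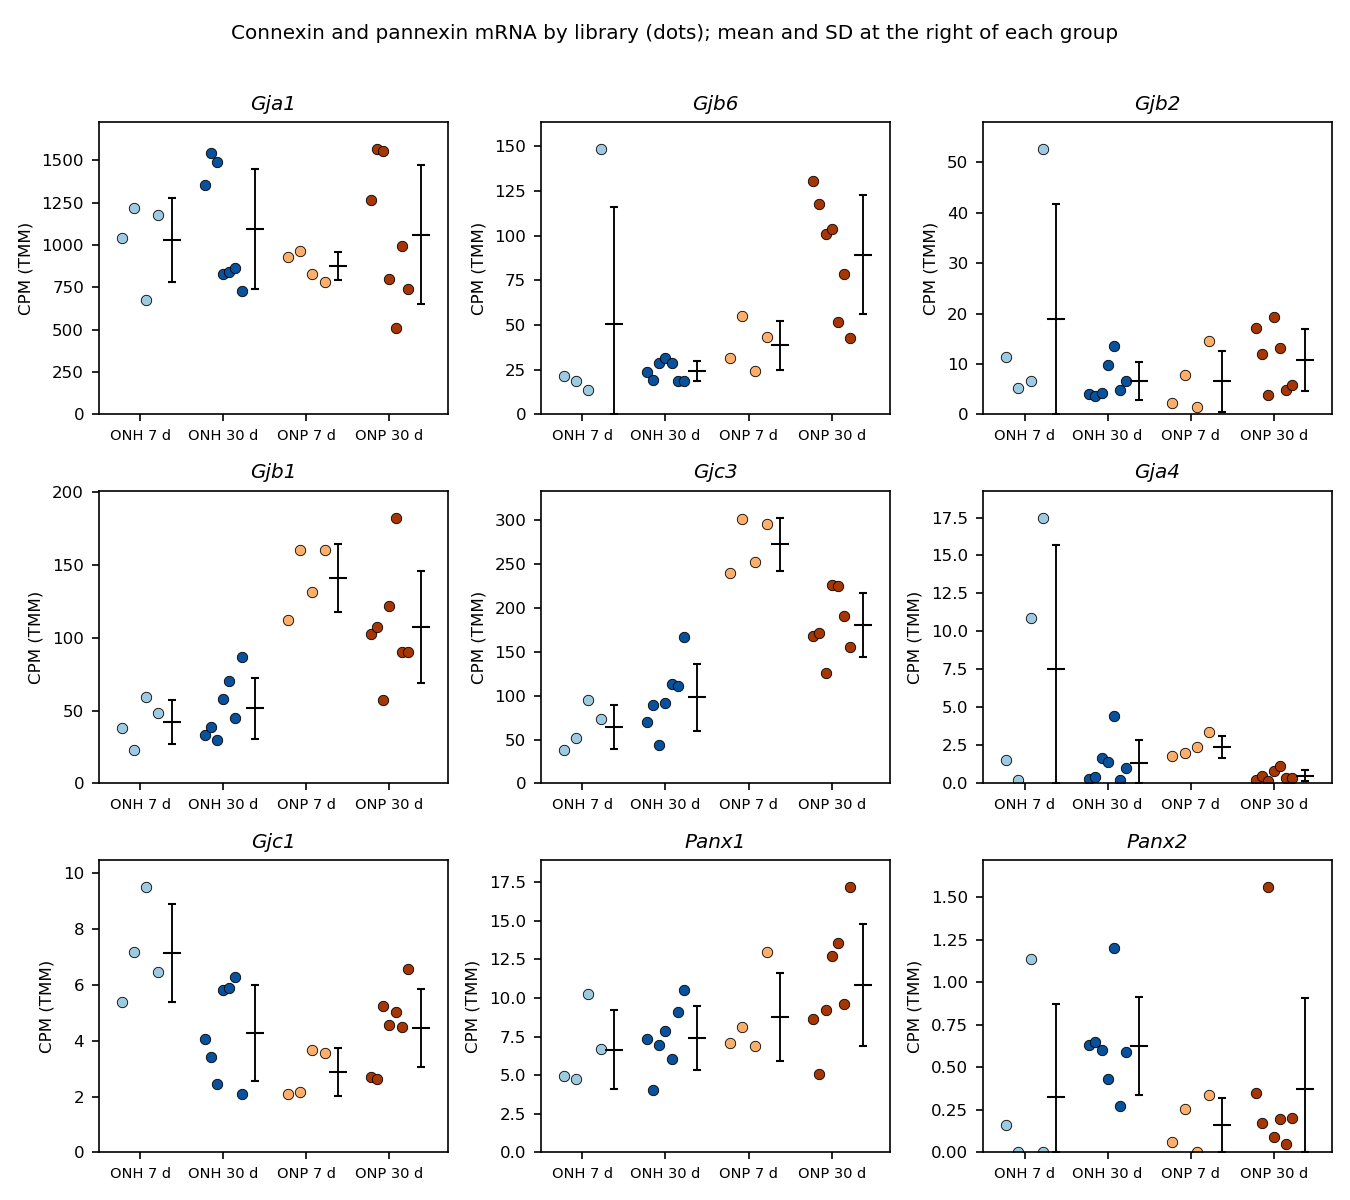
Levels of the 9 genes in CPM (vertical axes, linear from 0) in each of the 22 libraries (dots), by region and day, with the mean and SD beside each group; where the SD exceeds the mean the lower bar ends at 0. Gja1 overlaps between all 4 groups, Gjb6 is high in the 30 day ONP and in 1 library of the 7 day ONH, and Gjb1 and Gjc3 are higher in the ONP.

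The astrocyte pair Gja1 and Gjb6 did not behave alike. Gja1 (ENSMUSG00000050953, chromosome 10 of GRCm38, 56377330 to 56402513, plus strand) was not called in any comparison, while Gjb6 (ENSMUSG00000040055, chromosome 14, 57123303 to 57133611, minus strand) rose in the ONP from 7 to 30 days and was lower in the ONH than in the ONP at 30 days. Gjb2 (ENSMUSG00000046352, chromosome 14, 57098600 to 57104702, minus strand) lies near Gjb6 on the same strand, and it was not called in any comparison. The 250 bases before the RefSeq starts of these genes (GRCm38.p6, written 5′ to 3′ on the strand of the gene) are shown for this reason. The windows are chr10:56377050-56377299 for Gja1, chr14:57133612-57133861 for Gjb6 and chr14:57104703-57104952 for Gjb2, and capitals mark matches on either strand to an AP-1 motif (TGANTCA) or a GC box (GGGCGG).
Gja1: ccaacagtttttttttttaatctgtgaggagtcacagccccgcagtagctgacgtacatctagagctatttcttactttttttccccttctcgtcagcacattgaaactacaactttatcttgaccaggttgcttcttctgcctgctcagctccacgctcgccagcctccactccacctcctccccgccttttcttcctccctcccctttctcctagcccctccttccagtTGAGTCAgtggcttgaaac
Gjb6: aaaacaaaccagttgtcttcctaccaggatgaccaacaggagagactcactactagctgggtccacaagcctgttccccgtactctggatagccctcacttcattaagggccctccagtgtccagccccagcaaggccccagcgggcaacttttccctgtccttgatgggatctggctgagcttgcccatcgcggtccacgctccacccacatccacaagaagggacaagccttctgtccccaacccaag
Gjb2: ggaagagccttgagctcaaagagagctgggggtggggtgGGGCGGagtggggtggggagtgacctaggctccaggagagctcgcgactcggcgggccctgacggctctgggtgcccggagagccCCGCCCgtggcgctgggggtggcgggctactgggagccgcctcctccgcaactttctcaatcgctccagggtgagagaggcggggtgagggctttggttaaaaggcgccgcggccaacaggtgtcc

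The Gja1 window held 1 AP-1 match, 19 bases before the start, and 6.75% of the 32851 mouse windows of this length held one. The Gjb2 window held 2 GC boxes, where 32.7% of all windows held at least 1, and the Gjb6 window held neither motif and no CCAAT or TATAAA. The windows had 50% (Gja1), 56.8% (Gjb6) and 69.2% (Gjb2) G and C. These matches describe the letters of the windows only.

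In the ONH at 7 days Gja1 had 1041, 1219.6, 675 and 1176 CPM in libraries 1, 3, 5 and 6, and at 30 days it ranged from 731 to 1543 CPM with a median of 864. In the ONP at 7 days it had 928, 962, 827 and 782 CPM in libraries 1, 2, 5 and 6, and at 30 days it ranged from 509.6 to 1569 CPM with a median of 995. The 4 groups overlapped, and the means were 1093 ± 353 (SD, n = 7) and 1028 ± 247 CPM (SD, n = 4) in the ONH at 30 and 7 days and 1062 ± 413 (SD, n = 7) and 875 ± 84.4 CPM (SD, n = 4) in the ONP. At 30 days, replicates 1, 2 and 3 were the 3 highest in the ONH (1354, 1543 and 1492 CPM) and also in the ONP (1266, 1569 and 1553 CPM). The same 3 replicates had the 3 lowest summed oligodendrocyte marker levels of their region, at 16544, 18311 and 13440 CPM in the ONH and 43286, 37688 and 25561 CPM in the ONP. The part of this in the Gja1 levels was not tested.

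The differences of Gja1 all lay within 2 SE of no change. The log2 fold change (log2FC) was 0.06 (SE 0.25) for 30 against 7 days in the ONH and 0.25 (SE 0.27) in the ONP. It was 0.04 (SE 0.26) for the ONH against the ONP at 30 days and 0.25 (SE 0.20) at 7 days, with edgeR adjusted p-values from 0.428 to 0.927 in these 4 comparisons. An interval of 2 SE on each side ran from -0.48 to 0.55 for the regions at 30 days and from -0.43 to 0.56 for the days in the ONH. The sign of these 2 log2FC was reversed when some single libraries were left out.

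Gjb6 was listed at 21.5, 18.5 and 13.9 CPM in libraries 1, 3 and 5 of the 7 day ONH and at 149 CPM in library 6. At 30 days it ranged from 18.4 to 31.3 CPM (median 23.9) in the ONH and from 42.5 to 131 CPM (median 101) in the ONP, without overlap. The 7 day ONP had 31.6, 55.2, 24.4 and 43.1 CPM. At 30 days Gjb6 was thus 3.71-fold lower in the ONH (log2FC -1.89, SE 0.24, edgeR adjusted p = 2.54e-05), with 24.2 ± 5.45 against 89.4 ± 33.2 CPM (SD, n = 7 each). With the replicate as a block, which pairs the regions by replicate number, the log2FC was -1.82.

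In the ONP Gjb6 rose 2.27-fold between 7 and 30 days (log2FC 1.18, SE 0.32, edgeR adjusted p = 0.0265), from 38.6 ± 13.5 (SD, n = 4) to 89.4 ± 33.2 CPM (SD, n = 7), and the groups overlapped. This call was lost without library 1 (adjusted p = 0.0659), 5 (0.0708) or 6 (0.0580) of the 7 day ONP and in a fit of all 4 groups together (0.136). In the ONH the log2FC over the same interval was -1.09 (SE 0.52, adjusted p = 0.369), and without library 6 of the 7 day ONH it was 0.40 (adjusted p = 0.601). The difference between the regions in the 30 vs 7 day change, ONP minus ONH, was 2.28 on the log2 scale (SE 0.67, adjusted p = 0.127), and without that library it was 0.81 (adjusted p = 0.397).

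Library 6 also set the comparison of the regions at 7 days. With all libraries Gjb6 had a log2FC of 0.40 (SE 0.68, edgeR adjusted p = 0.735) for the ONH against the ONP. Without library 6 the other 3 ONH libraries all lay below the 4 ONP libraries, and the log2FC was -1.10 (adjusted p = 0.0387). Aqp4, the astrocyte water channel, was lower in the ONH at both days (log2FC -1.65 at 7 days, adjusted p = 0.00106, and -1.43 at 30 days, adjusted p = 0.000298), and of the 10 astrocyte markers 3 were lower and 0 higher at 7 days (13.2% of all genes were called), and 4 were lower and 1 higher at 30 days (41.8% of all genes).

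Within a library, Gja1 exceeded Gjb6 per kilobase in all 22 libraries, by 2.02-fold to 4.53-fold in the 30 day ONP and by 6.90-fold to 20.95-fold in the 30 day ONH, without overlap. The ratio in the 7 day ONP was 7.65, 4.54, 8.83 and 4.73 in libraries 1, 2, 5 and 6, the lowest of them next to the highest of the 30 day ONP. The 7 day ONH libraries 1, 3 and 5 had ratios of 12.6, 17.2 and 12.7, against 2.06 in library 6.

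**Figure D2:**
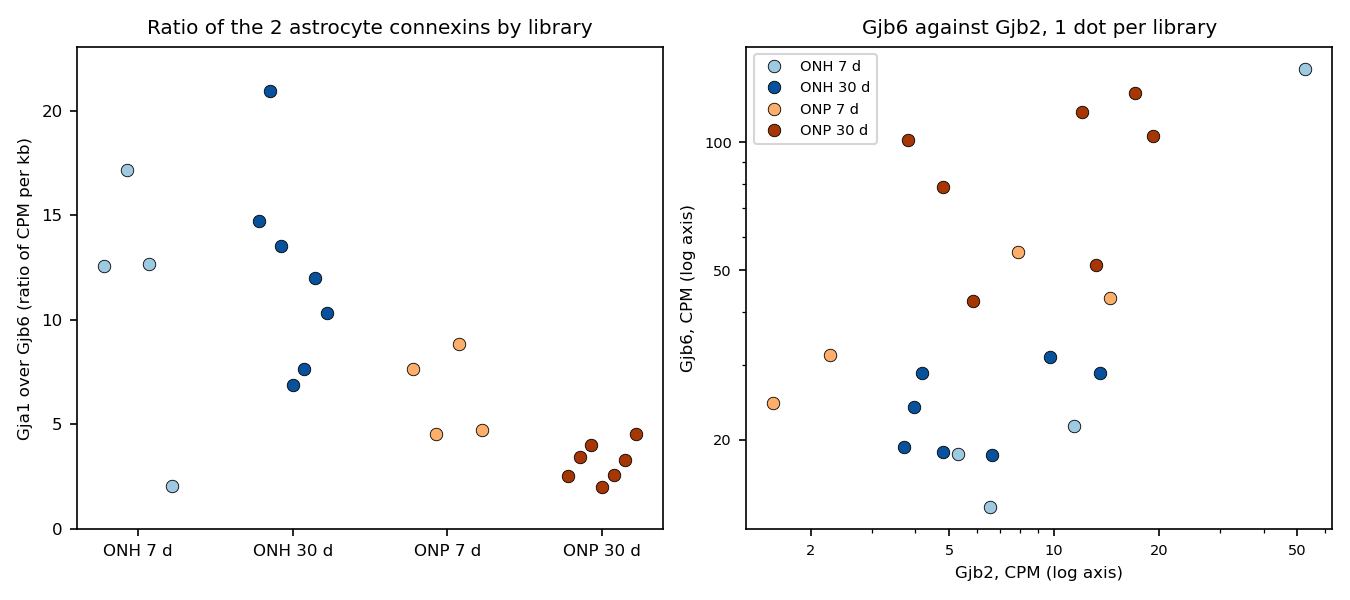
Left, ratio of Gja1 to Gjb6 in CPM per kb (vertical axis, linear from 0) in each library (dots) by region and day; the 30 day ONP libraries lie between 2.02 and 4.53 and the 30 day ONH libraries between 6.90 and 20.95. Right, Gjb6 against Gjb2 in CPM on log axes, with library 6 of the 7 day ONH at the top right (149 and 52.7 CPM).

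Gjb2 had 11.4, 5.29, 6.55 and 52.7 CPM in libraries 1, 3, 5 and 6 of the 7 day ONH and 2.27, 7.89, 1.56 and 14.5 CPM in libraries 1, 2, 5 and 6 of the 7 day ONP. At 30 days it ranged from 3.71 to 13.5 CPM (median 4.80) in the ONH and from 3.80 to 19.3 CPM (median 12.002) in the ONP. The groups overlapped in every comparison. Its log2FC between 30 and 7 days was -1.54 (SE 0.58, adjusted p = 0.277) in the ONH and -0.25 without library 6 of the 7 day ONH (adjusted p = 0.882). For the ONH against the ONP at 7 days it was 1.54 (SE 0.85, edgeR adjusted p = 0.260), or 0.24 without that library. The interaction of Gjb2 was 2.23 (SE 0.91, adjusted p = 0.301), or 0.95 without that library. Over the 22 libraries the log2 CPM of Gjb2 had a Pearson's r of 0.55 with Gjb6 and of -0.13 with Gja1, and without library 6 of the 7 day ONH these were 0.43 and -0.25. Its r with the summed fibroblast and meningeal markers was 0.63 and with the summed astrocyte markers -0.34, and without that library 0.44 and -0.21. Ptgds and Gfap are the most abundant genes of these lists and weigh most in the sums. All such r are descriptions over libraries that share their depth and composition.

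The oligodendrocyte connexins Gjb1 (ENSMUSG00000047797, chromosome X, 101376378 to 101385629, plus strand) and Gjc3 (ENSMUSG00000056966, chromosome 5, 137953461 to 137963098, minus strand) were lower in the ONH than in the ONP at both days. Gjb1, mutated in an inherited neuropathy, had 38.0, 23.1, 59.2 and 48.6 CPM in the 7 day ONH and 112, 160.4, 131 and 160.0 CPM in the 7 day ONP, and the groups did not overlap. At 30 days Gjb1 ranged from 30.1 to 86.7 CPM (median 44.8) in the ONH and from 57.3 to 183 CPM (median 103) in the ONP, with overlap. Gjb1 was 3.30-fold lower in the ONH at 7 days (log2FC -1.72, SE 0.27, edgeR adjusted p = 0.00248) and 2.08-fold lower at 30 days (log2FC -1.06, SE 0.26, adjusted p = 0.00445).

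Gjc3 had 38.0, 51.9, 94.8 and 73.8 CPM in the 7 day ONH and 240.0, 301, 252 and 296 CPM in the 7 day ONP. At 30 days it ranged from 44.2 to 167 CPM (median 91.6) in the ONH and from 126 to 226 CPM (median 172) in the ONP. The groups were apart at 7 days and overlapped at 30 days. Gjc3 was 4.17-fold lower in the ONH at 7 days (log2FC -2.06, SE 0.26, edgeR adjusted p = 0.000789) and 1.84-fold lower at 30 days (log2FC -0.88, SE 0.22, adjusted p = 0.00510). Between 7 and 30 days it fell 1.54-fold in the ONP (log2FC -0.62, SE 0.15, adjusted p = 0.0173), with all 7 libraries at 30 days below the 4 at 7 days. The fall was not called without library 2 (adjusted p = 0.0533) or 6 (0.0607) of the 7 day ONP or with all 4 groups in a single fit (0.164).

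In the ONH the log2FC of Gjc3 over this interval was 0.58 (SE 0.32, adjusted p = 0.429), and the interaction was -1.19 (SE 0.37, adjusted p = 0.150, unadjusted p = 0.00388). Gjb1 had a log2FC of 0.27 (SE 0.32, adjusted p = 0.729) in the ONH and of -0.42 (SE 0.24, adjusted p = 0.247) in the ONP. Gjb1 was called in the ONP once library 5 of the 30 day ONP, its highest (183 CPM), was left out (log2FC -0.57, adjusted p = 0.0455).

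Markers of oligodendrocytes, a cell type not meant to be captured, moved with Gjb1 and Gjc3 between the regions and in the ONP over time. The summed level of the 10 markers was 18487 to 35587 CPM in the 7 day ONH, 81549 to 106875 CPM in the 7 day ONP, 13440 to 41098 CPM in the 30 day ONH and 25561 to 83751 CPM in the 30 day ONP. As single genes, 10 of the 10 were lower in the ONH at 7 days and 8 of the 10 at 30 days, and 8 of the 10 fell in the ONP between 7 and 30 days, with median log2FC of -1.88, -0.99 and -0.85. Of all genes, 13.2%, 41.8% and 17% were called in these comparisons. In the ONH between days 0 of the 10 markers were called, and 0% of all genes. There 5 markers had a positive and 5 a negative log2FC, with a median of -0.02, beside 0.27 for Gjb1 and 0.58 for Gjc3. Over the 22 libraries r with the summed markers was 0.94 for Gjb1 and 0.89 for Gjc3, and r between Gjb1 and Gjc3 was 0.94, or 0.80 with group means removed. With the summed markers of oligodendrocyte precursors (5 genes) r was 0.92 for Gjb1 and 0.93 for Gjc3. Group means were not removed from the r with markers, so differences between groups enter them. The part of either marker list in the differences of Gjb1 and Gjc3 was not tested.

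**Figure D3:**
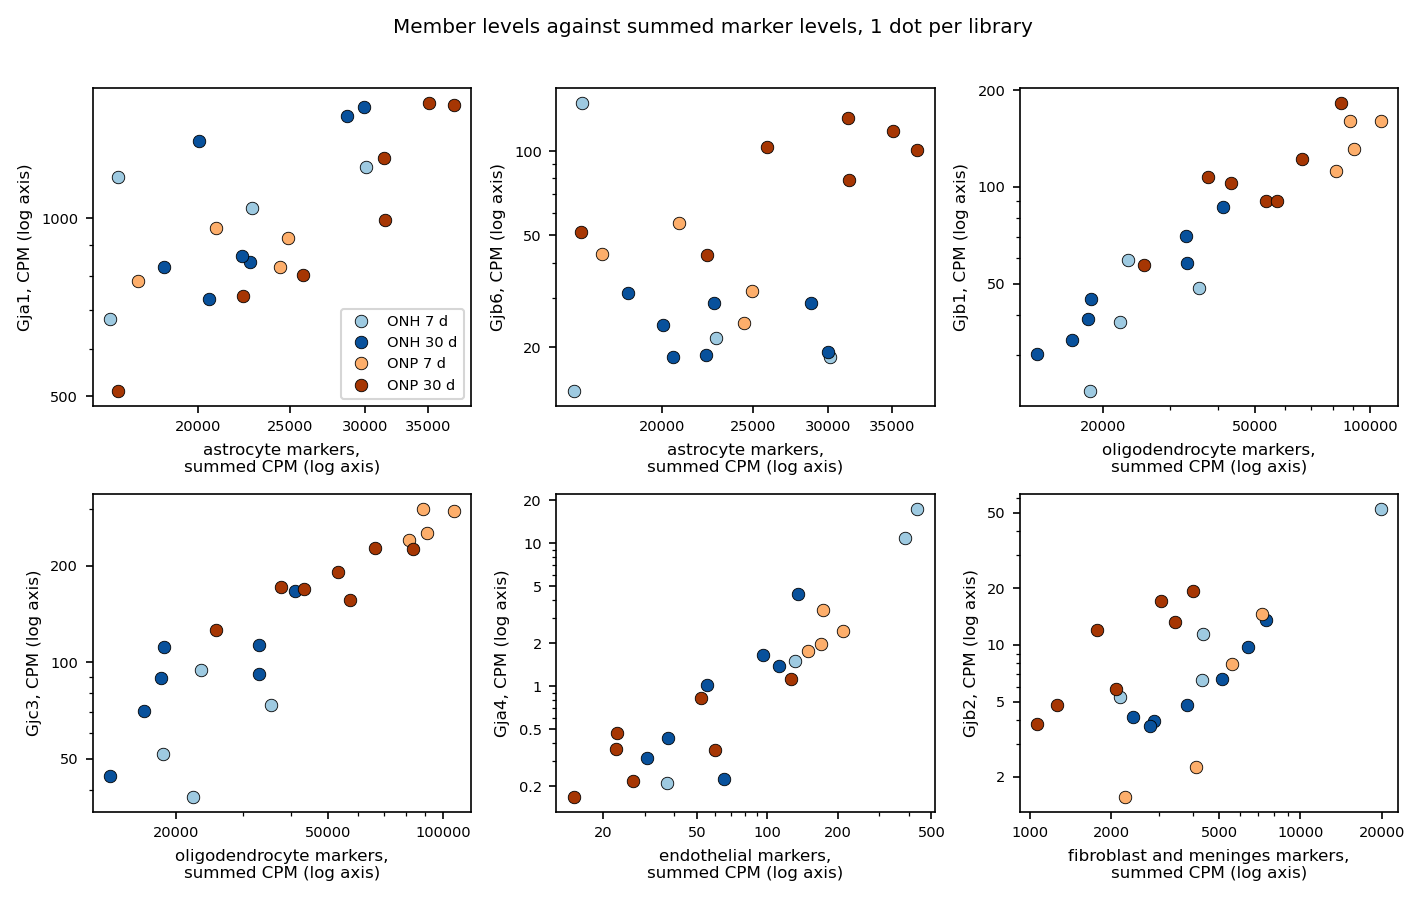
Level of 6 of the genes (vertical axes, CPM, log) against the summed CPM of a marker list (horizontal axes, log), 1 dot per library, coloured by region and day. Gjb1 (r = 0.94), Gjc3 (r = 0.89) and Gja4 (r = 0.89) rise with the markers beside which they are drawn, Gja1 (r = 0.70) and Gjb2 (r = 0.63) less closely. Gjb6 (r = 0.29, or 0.48 without library 6 of the 7 day ONH) is spread widely at a given astrocyte marker level. Over the 22 libraries the r of Gjb6 was 0.48 with oligodendrocyte precursor markers, 0.38 with oligodendrocyte markers and -0.52 with pigment epithelium markers. These are not drawn.

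The vascular connexins were low. Gja4 (ENSMUSG00000050234, chromosome 4, 127311421 to 127314039, minus strand) had 1.51, 0.209, 10.9 and 17.5 CPM in libraries 1, 3, 5 and 6 of the 7 day ONH and 1.78, 1.97, 2.42 and 3.41 CPM in libraries 1, 2, 5 and 6 of the 7 day ONP. At 30 days it ranged from 0.226 to 4.45 CPM (median 1.02) in the ONH and from 0.167 to 1.12 CPM (median 0.362) in the ONP, where 1 library was at the limit of 3 counts. Gja4 fell 4.80-fold in the ONP from 7 to 30 days (log2FC -2.26, SE 0.49, edgeR adjusted p = 0.00943), with all 7 libraries at 30 days below the 4 at 7 days. The call held in all 11 fits that left out 1 library and was lost with all 4 groups in a single fit (adjusted p = 0.0939).

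In the ONH the log2FC of Gja4 over this interval was -2.48 (SE 0.94, edgeR adjusted p = 0.281), and without library 6 of the 7 day ONH it was -1.63 (adjusted p = 0.603). In the ONH 0 of the 9 endothelial markers were called by edgeR (6 at an unadjusted p under 0.05 and 5 by DESeq2), with a median log2FC of -1.98. These markers summed to 149 to 209 CPM in the 7 day ONP and to 14.9 to 126 CPM in the 30 day ONP, and 6 of the 9 fell there, against 17% of all genes called, with a median log2FC of -2.10. Their sum in the 7 day ONH was highest in libraries 5 and 6 (384 and 435 CPM), which were also highest in Gja4. Over the 22 libraries r between Gja4 and the summed endothelial markers was 0.89, and the part of endothelial mRNA in the fall of Gja4 was not tested.

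Gjc1 (ENSMUSG00000034520, chromosome 11, 102799579 to 102819700, minus strand) went the other way between regions at 7 days. It had 5.39, 7.18, 9.52 and 6.45 CPM in the 7 day ONH and 2.08, 2.16, 3.65 and 3.56 CPM in the 7 day ONP, without overlap. At 30 days it ranged from 2.10 to 6.29 CPM (median 4.04) in the ONH and from 2.61 to 6.55 CPM (median 4.57) in the ONP. Gjc1 was 2.51-fold higher in the ONH at 7 days (log2FC 1.33, SE 0.39, edgeR adjusted p = 0.0462), close to the threshold. The call was lost in 7 of the 8 fits that left out 1 library (adjusted p up to 0.126) and without a filter on low counts (0.110). The log2FC at 30 days was -0.06 (SE 0.29, adjusted p = 0.876), and the interaction was 1.37 (SE 0.47, adjusted p = 0.202, unadjusted p = 0.00790). The 8 mural markers summed to 574 to 1404 CPM in the 7 day ONH and 325 to 533 CPM in the 7 day ONP. Over the 22 libraries their r with Gjc1 was 0.33, or 0.25 without library 6 of the 7 day ONH. The r of Gjc1 was higher with markers of pigment epithelium (0.43), axons and neurons (0.41) and photoreceptors (0.41). It was 0.20 with endothelial markers, -0.30 with astrocyte, -0.31 with oligodendrocyte and -0.36 with oligodendrocyte precursor markers. The part of any list in the Gjc1 difference was not tested.

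Panx1 (ENSMUSG00000031934, chromosome 9, 15002128 to 15045478, minus strand) had 4.96, 4.75, 10.3 and 6.67 CPM in the 7 day ONH and 7.11, 8.15, 6.89 and 13.004 CPM in the 7 day ONP. At 30 days it ranged from 4.01 to 10.5 CPM (median 7.37) in the ONH and from 5.10 to 17.2 CPM (median 9.63) in the ONP. The groups overlapped throughout. Its largest pairwise difference was between the regions at 30 days (log2FC -0.55, SE 0.25, edgeR adjusted p = 0.0881), which passed the threshold with the replicate as a block (log2FC -0.52, adjusted p = 0.0285). It also passed without replicate 7 of the ONH (adjusted p = 0.0464) or replicate 2 of the ONP (0.0273). Panx1 had an r of -0.66 with Gja1 over the 22 libraries. With summed markers its r was 0.57 for microglia and macrophages, 0.56 for oligodendrocyte precursors and 0.51 for oligodendrocytes. Gja1 had an r of -0.73 with the microglia and macrophage markers.

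Panx2 (ENSMUSG00000058441, chromosome 15, 89059734 to 89073567, plus strand) held 185 counts in all 22 libraries together and at most 30 in one. It was at or under 3 counts in 3 of the 4 libraries of the 7 day ONH, in 2 of the 4 of the 7 day ONP and in 2 of the 7 of the 30 day ONP. The filter on low counts removed it from 3 of the 5 comparisons, and in the ONH its log2FC between 30 and 7 days was 0.95 (SE 1.06, edgeR adjusted p = 0.716). An antisense gene, 1810021B22Rik, overlaps 171 bases of its exons, and a library kit without strand cannot tell their reads apart.

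Taking the 9 genes by class, Gja1 and Gjb6 made up 34.9% to 45.1% of their summed level per kilobase in the 7 day ONP and 50.5% to 80.8% in the 7 day ONH, without overlap. At 30 days the share was 29.1% to 73.8% in the ONP and 45.2% to 82.9% in the ONH. Gjb1 and Gjc3 held 53.3% to 61.0% in the 7 day ONP, 16.3% to 40.2% in the 7 day ONH, 24.4% to 66.9% in the 30 day ONP and 14.7% to 51.5% in the 30 day ONH. Gja4 and Gjc1 together held up to 5.95% in the 7 day ONH and at most 2.23% in the other groups, and the pannexins at most 1.59% in any library. All these shares depend on the merged exon lengths, and which transcripts were present was not tested.

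**Figure D4:**
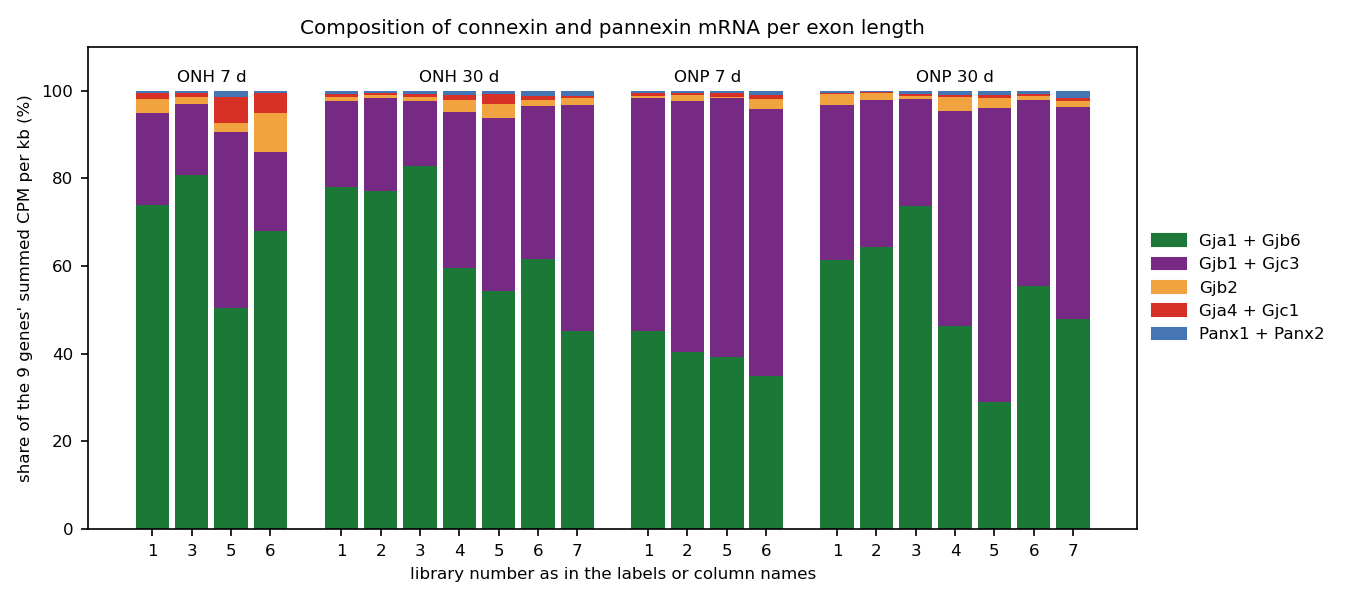
Share (%, vertical axis) of 5 classes in the summed CPM per kb of the 9 genes, 1 bar per library, by region and day. The astrocyte pair Gja1 and Gjb6 holds 34.9% to 45.1% in the 7 day ONP and 50.5% to 80.8% in the 7 day ONH. The shares depend on the merged exon lengths.

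Read together by comparison, 0 of the 9 genes were called between 30 and 7 days in the ONH, where edgeR called 0% of the 15668 genes tested (2179 at an unadjusted p under 0.05). Of the 9 genes, 3 had an unadjusted p under 0.05 there (Gja4, Gjb2 and Gjc1), and DESeq2 called 0 of them and 446 genes in all. In the ONP, 3 of 8 tested were called between 30 and 7 days (Gjb6 higher, Gjc3 and Gja4 lower), where 17% of all 15491 genes tested were called. Between the regions at 30 days 3 of 8 were called, all lower in the ONH (Gjb6, Gjb1 and Gjc3), against 41.8% of 15133 genes. At 7 days 3 of 8 were called (Gjb1 and Gjc3 lower, Gjc1 higher in the ONH), against 13.2% of 14752 genes. The share at 30 days is close to that of all genes. In the interaction 0 of 9 were called against 0.543% of 16748 genes, 4 had an unadjusted p under 0.05 (Gjb6, Gjc3, Gjc1 and Gjb2), and DESeq2 called 1 of them, Gjb6 (adjusted p = 0.0261). These fits include library 6 of the 7 day ONH, without which the edgeR interaction was 0.81 for Gjb6 and 0.95 for Gjb2. The median log2FC over the genes tested was 0.06 in the ONH, 0.26 in the ONP, -0.63 between the regions at 30 days and 0.33 at 7 days, beside -0.02, -0.01, -0.01 and 0.07 over all genes. The comparisons share libraries in pairs and are not independent of each other.

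**Figure D5:**
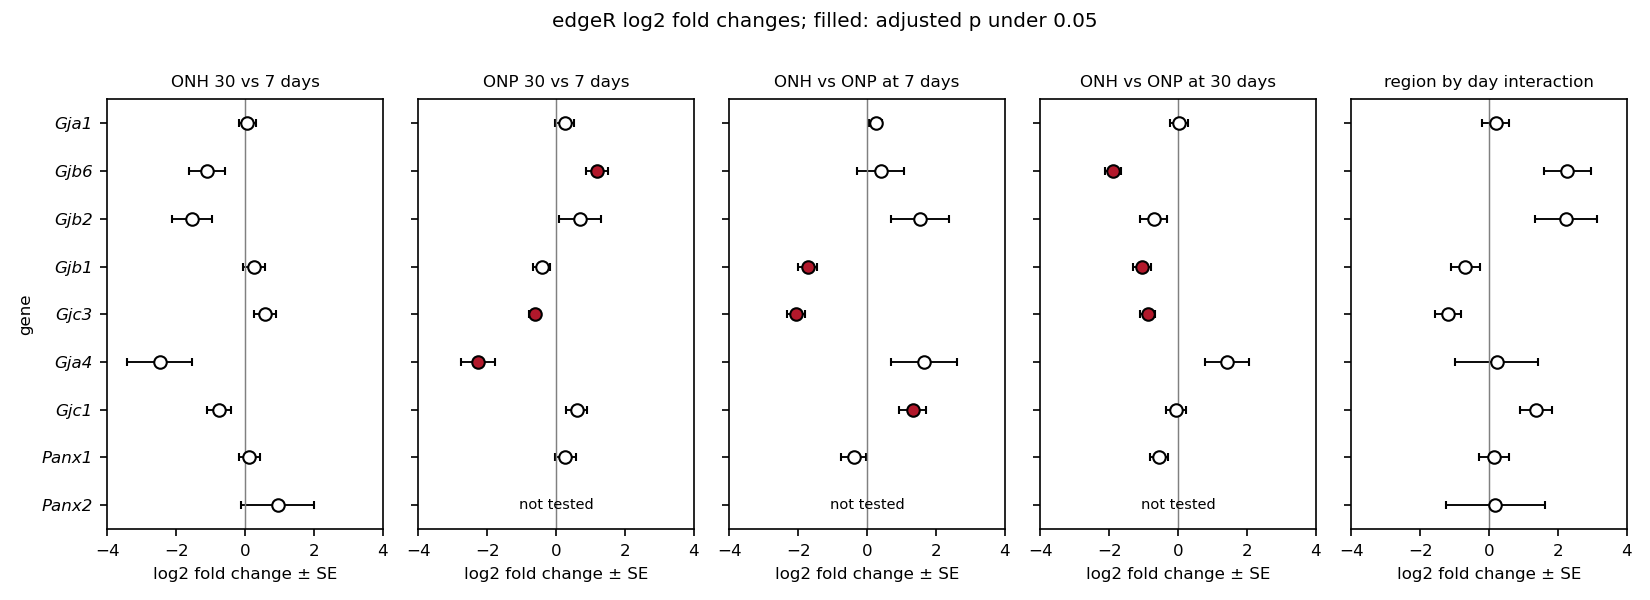
edgeR log2 fold changes with their SE (horizontal axes) of the 9 genes in the 4 pairwise comparisons and the interaction (30 vs 7 day change in the ONP minus that in the ONH); filled points have an adjusted p under 0.05. Called are Gjb6, Gjc3 and Gja4 in the ONP over time, Gjb1, Gjc3 and Gjc1 between regions at 7 days, and Gjb6, Gjb1 and Gjc3 at 30 days.

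Other connexins were measured in the same libraries. The arterial connexin Gja5 was highest in libraries 5 and 6 of the 7 day ONH (2.68 and 5.89 CPM), those highest in Gja4, and was at 0 in the other 2 libraries of that group. The lens connexin Gja3 had 10.6 CPM in library 1 of the 7 day ONH and was at 0 in 13 of the 22 libraries. Gja6, Gjd2, Gjd3, Gjd4 and Gje1 stayed at or under 0.301 CPM in every library.

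The genes most like each connexin over the 22 libraries, among 16747 compared by Pearson's r of log2 CPM, included Fam20a (r = 0.92), Suox (0.92), Lcat (0.89) and Emp2 (0.89) for Gja1. For Gjb6 they were Fibin (0.90), the cationic amino acid transporter Slc7a2 (0.89), the glutamine transporter Slc38a3 (0.87), Mro (0.86) and Clec3b (0.84). Gjb2 went with Aifm3 (0.92), Serpinb6c (0.88), Osr1 (0.88), Tgfbr3 (0.87) and Qprt (0.85). Gjb1 went with Ermn (0.97), Pllp (0.97), Litaf (0.97), Enpp4 (0.97) and Arsg (0.97), and Gjc3 with Pllp (0.97), Snx30 (0.97), Tmem88b (0.96), Cyp2j12 (0.96) and Aatk (0.96). For Gja4 they were Tinagl1 (0.93) and the endothelial genes Icam2 (0.92), Sox18 (0.91), Nostrin (0.89) and Bmx (0.89). Gjc1 had looser partners, Kcmf1 (0.84), Agpat3 (0.82), P3h3 (0.81), Cdc34 (0.80) and Nr2f6 (0.79). Without library 6 of the 7 day ONH these r lay between 0.87 and 0.92 for Gjb6, 0.79 and 0.89 for Gjb2, and 0.84 and 0.90 for Gja4. Of the 5 genes of each connexin, 1 stayed among the top 5 for Gjb6 and for Gjc1, 2 for Gja1, 3 for Gjc3 and Gja4, and 4 for Gjb1 and Gjb2.

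Proteins known to bind, scaffold or modify connexins were taken as a list of 20 genes, of which 19 were in the table and tested. Between 30 and 7 days 0 of 19 were called by edgeR in the ONH (8 at an unadjusted p under 0.05, and 1, Akap12, by DESeq2), and 6 of 19 fell in the ONP, where 17% of all genes were called. Tjp1, the scaffold ZO-1 that binds the tail of Cx43, fell from 50.2 ± 14.2 (SD, n = 4) to 29.2 ± 6.04 CPM (SD, n = 7) in the ONP (log2FC -0.81, SE 0.19, edgeR adjusted p = 0.0144). Among the others were the caveolar protein Cav1 (log2FC -0.76), the junction protein Jup (-0.90), the actin-binding Dbn1 (-0.57) and Tjap1 (-1.07).

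At 30 days 13 of the 19 differed between the regions, against 41.8% of all genes. Higher in the ONH were Tjp1 (log2FC 1.06), Akap12 (1.56), Dbn1 (0.92), Ctnnb1 (0.61) and Cav1 (0.49). The 8 that were lower included Nov (-3.15), Jup (-1.26), Tuba1a (-1.12), Prkca (-1.01), Csnk1d (-0.45), Cnst (-0.38) and Mpp5 (-0.33). At 7 days 5 of 19 differed, against 13.2% of all genes, with Akap12 (1.84) and Dbn1 (1.04) higher and 3 lower in the ONH, among them Jup (-1.37) and Tuba1a (-0.89). The median log2FC of the list was 0.05 at 30 days and -0.01 at 7 days.

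Receptors and enzymes that respond to or degrade extracellular ATP and adenosine formed a list of 14 genes, all in the table. Adora2b, an adenosine receptor, rose in the ONP from 7.31 ± 1.89 (SD, n = 4) to 18.9 ± 5.87 CPM (SD, n = 7) between 7 and 30 days (log2FC 1.34, SE 0.27, edgeR adjusted p = 0.00739). It was lower in the ONH at 30 days (log2FC -2.42, SE 0.28, adjusted p = 1.07e-05), and it was the only gene of the list called in the interaction (log2FC 2.45, SE 0.52, adjusted p = 0.0328). Nt5e, which makes adenosine from AMP, fell in the ONP (log2FC -0.84, adjusted p = 0.0416). Entpd2, an ATP-degrading enzyme of the cell surface, was higher in the ONH at 7 days (log2FC 0.90, adjusted p = 0.0111) and at 30 days (0.59, adjusted p = 0.0205). In all, 2 of 14 were called in the ONP over time, 6 of 13 between the regions at 30 days (5 lower and 1 higher in the ONH), and 1 of 14 at 7 days, beside 17%, 41.8% and 13.2% of all genes. In the ONH over time 0 of 13 were called by edgeR (4 at an unadjusted p under 0.05, and 1, P2ry14, by DESeq2), with 10 of the 13 log2FC negative and a median of -0.66.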

How the data were processed

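The authors sequenced poly(A) mRNA bound to HA-tagged ribosomes (Smart-Seq HT kit, unstranded, paired reads), aligned with STAR 2.6.1d on mm10 and quantified transcripts with Salmon 0.14.2 on an Ensembl annotation. The authors deposited gene-level expected counts as whole numbers, not normalized, and a variance stabilized log2 table (R 4.1.0, DESeq2 1.34.0), which was not used. All 22 columns were assigned to a group. The 7 day columns carry numbers that do not match the labels, so they were assigned to region and day only. Each library is a pool of 4 mice, so p-values measure the spread between pools. Smart-Seq amplifies without molecular identifiers, so the limit of 3 counts covers counting error only.

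The tests were run with edgeR 4.0.16 under R 4.3.3: filterByExpr by group, TMM, the quasi-likelihood test and Benjamini-Hochberg adjustment over all genes tested, with adjusted p under 0.05 and no fold cutoff. The paper's methods name DESeq2, run here (1.42.0) as an alternative. SE is the log2FC over the root of F. The 4 pairwise comparisons used their own 2 groups, and the interaction all 4, each without pairing. The code was tested on simulated counts for each of the 5 comparisons. Correlations used log2 of CPM plus 0.5. Gene models are GENCODE M21 (29322 of 29367 identifiers matched), and promoter windows are from RefSeq GRCm38.p6, which held 7 of the 9 genes. For the replicate block at 30 days, same-numbered libraries were taken as coming from the same mice, which the labels do not state. Their deviations from the group means correlated by 0.106 to 0.538 over 7 pairs. Of the 7 ONH libraries, 3 correlated best with the ONP library of their own number. No 2 libraries agreed within sampling noise.

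The 9 genes, the marker and pathway lists and the tests were chosen with earlier results of these data known. Genes named are the 9, the other connexin genes in the table, the called connexin partners, the markers set beside a result, and the 5 genes most correlated with each of 7 connexins; some genes that this rule selects are not reported here. The ATP and adenosine genes named were picked after their values were seen.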

Additional observations from a re-analysis of the deposited data

Results flagged for a closer look

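Each of the 9 genes was examined in each of the 4 groups for a library far from the others of its group (Dixon's test at 95%), and 6 of 36 sets stood out, where chance gives about 1.8. Library 6 of the 7 day ONH held 149 CPM of Gjb6, against 13.9 to 21.5 CPM in the other 3, and 52.7 CPM of Gjb2, against 5.29 to 11.4 CPM. That library also had 17.5 CPM of Gja4 and 5.89 CPM of Gja5, while its Gja1 (1176 CPM) was within the range of its group. It held the highest levels of fibroblast and meningeal markers (19894 CPM, of which 18149 CPM were Ptgds) and of photoreceptor markers (5721 CPM) of all libraries. Their part in the Gjb6 and Gjb2 levels was not tested.

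Gja4 had 4.45 CPM in replicate 5 of the 30 day ONH, against at most 1.66 CPM in the other 6, and the endothelial markers of that library summed to 134 CPM, the highest of its group. Panx2 stood out in 3 groups, with 1.202 CPM in replicate 5 of the 30 day ONH, 1.56 CPM in replicate 3 of the 30 day ONP, and, in the 7 day ONH, 1.14 CPM in library 5, all at counts of 30 or fewer.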

How the results depend on the processing

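The 5 comparisons were repeated with DESeq2, RLE size factors, library size only, no filter on low counts, all 4 groups in a single fit, the replicate block and each library left out in turn. In the ONH between days 446 genes were called by DESeq2, 2 without a filter and 292 with all groups in a single fit. In the ONP between days the single fit called 1189 genes and 0 of the connexins and pannexins in place of 3. At 7 days DESeq2 called 3204 genes between the regions and the single fit 3785. In the interaction DESeq2 called 409 genes and 1 of the 9, and 50 genes were called without a filter. The causes were not tested. Library size alone moved the median log2FC of all genes by 0.114 in the ONP between days, 0.114 between regions at 7 days and 0.152 in the interaction, and no member's sign changed with any scaling.

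Leaving out single libraries, the genes called ranged from 0 to 167 (ONH between days, 167 without library 5 of the 7 day ONH), 1439 to 3214 (ONP between days, fewest without library 6 of the 7 day ONP), 5671 to 6416 (30 days), 1102 to 2379 (7 days, fewest without library 6 of the 7 day ONP) and 22 to 318 (interaction, most without library 5 of the 7 day ONH). Of the 9 genes, 0 to 0, 1 to 4, 3 to 4, 2 to 3 and 0 to 1 were called, in the same order. The 1 in the interaction was Gjb6 without library 5 of the 7 day ONH (log2FC 2.59, adjusted p = 0.0373), a fit that kept library 6 of that group. Signs were reversed without single libraries for Gja1 in the ONH between days (-0.093 to 0.15) and between regions at 30 days (-0.095 to 0.16), for Panx1 in the ONH between days (-0.0098 to 0.41), for Gjb6 in the ONH between days (-1.40 to 0.40) and between regions at 7 days (-1.10 to 0.71), and for Gjc1 between regions at 30 days (-0.20 to 0.056). In the interaction they were reversed for Gja4 (-0.60 to 0.93), Panx1 (-0.14 to 0.45) and Panx2 (-2.37 to 0.88). DESeq2 gave Gjb6 no p-value in the ONH between days. Correlations without library 6 of the 7 day ONH, a choice made after seeing the data, kept their sign in all 14 pairs computed.

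With the replicate block at 30 days 4 of the 9 genes (Panx1 added) and 6717 genes in all were called, and it changed no other call of the 9. Mice were killed at 7 or 30 days, so the comparisons between days had no pairs. No paired fit was run for the regions at 7 days or the interaction, which treated the regions as independent. The numbers in the 7 day columns do not match the replicate numbers of the labels, so that no 7 day column could be tied to a sample.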
